A study of Mus musculus with 6 samples.

Results

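The dystrophin-glycoprotein complex was followed through 8 of its genes, *Dmd*, *Utrn*, *Dag1*, *Sgca*, *Sgcb*, *Sgcd*, *Sspn* and *Sntb1*, out of 23231 genes with counts in any library. The genes were taken by name, with earlier results of these data known. RNA-Seq came from C2C12 cells, an established line of mouse myoblasts that form myotubes at low serum, on day 5 of differentiation in 2% horse serum. All cells had received lentivirus (multiplicity of infection 100) and had been selected with 2 μg/ml puromycin, so each culture is a transduced pool and not a clone. The virus encoded dCas9-KRAB, a Cas9 without nuclease activity fused to the KRAB repressor domain, driven by the human ubiquitin C promoter. The 3 dCas9-KRAB libraries carried no sgRNA against an enhancer, and the 3 dCas9-KRAB-En5 libraries carried 2 sgRNAs against Myog-En5, an enhancer assigned to the myogenin gene *Myog*. The labels give each library a replicate number but do not say whether the cultures were started separately, so the p-values below measure the spread between these libraries, which may be technical. The question addressed was how the genes of this membrane complex stood in differentiated cells when that enhancer was the target of the repressor.

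The complex ties the actin cytoskeleton of a muscle fiber to the laminin of its basement membrane. Dystrophin, or its autosomal relative utrophin, binds actin inside the cell and β-dystroglycan at the membrane, and α-dystroglycan binds laminin outside. The sarcoglycans and sarcospan form a subcomplex beside dystroglycan, and dystrobrevins and syntrophins sit at the carboxyl terminus of dystrophin, where they hold signaling proteins such as neuronal nitric oxide synthase. Loss of dystrophin or of α-, β- or δ-sarcoglycan causes muscular dystrophy.

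*Myog* stood at a TPM of 1065, 1224 and 1118 in dCas9-KRAB and at 0.38, 0 and 0 in dCas9-KRAB-En5, where the 3 values of a group follow the replicate numbers and TPM is the count per length of the gene scaled to the same total in every library. The depth was 31831093 to 73988425 counts per library. dCas9-KRAB-En5 replicate 3 stood apart with 13991 genes listed, against 17084 to 19395 in the other libraries, and with 25.8% of its counts in ribosomal protein genes, against 10.8% to 19.4%. The summed TPM of 10 myotube markers was 15500 to 17980 in dCas9-KRAB and 14.9 to 22.6 in dCas9-KRAB-En5, and all 10 were called lower. All 6 libraries also held markers of macrophages, which the label C2C12 does not account for. The summed TPM of 14 such genes was 5694 to 8409 in dCas9-KRAB and 12450 to 20700 in dCas9-KRAB-En5. *Lyz2*, the largest value in each of these sums, stood at 1896 to 4815 against 6938 to 13210. Not all of these markers rose, and *Mpeg1* was at 32.7 to 61.2 against 16.7 to 27.2. The group means of *Spi1* were 233 against 191 and those of *Fcer1g* 795 against 707. *C1qa*, *C1qb* and *C1qc* were at or below 0.98. Of the 12 macrophage markers tested 1, *Adgre1*, was called higher and 0 lower by edgeR (4 and 1 at an unadjusted p under 0.05, 2 and 0 by DESeq2). Over all genes tested, edgeR called 1.52% higher and 4.67% lower (16.6% and 16.3% at an unadjusted p under 0.05). DESeq2 called 5.88% higher and 8.66% lower. For 10 fibroblast markers the sums were 72.5 to 208 and 20.6 to 39.1. In bulk RNA, fewer cells of a type and less RNA per cell cannot be told apart, and the part of these other markers in the values below was not tested.

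Of the 7 members that passed the low-count filter, 3 were called lower in dCas9-KRAB-En5 (*Sgca*, *Sspn* and *Sntb1*) and 0 were called higher. A call required a Benjamini-Hochberg adjusted p of at most 0.01 in the quasi-likelihood test of edgeR and a log2 fold change of at least 1 in size, given throughout as dCas9-KRAB-En5 over dCas9-KRAB. Over all 14378 genes tested, 4.67% were called lower and 1.52% higher. At an unadjusted p under 0.05, 4 members were lower and 0 higher, against 16.3% and 16.6% of the genes in the fit. The median log2 fold change was -1.50 over the 7 members and 0.08 over all genes tested. In TPM, the groups did not overlap for 4 members, all lower in dCas9-KRAB-En5, and for 19.7% (lower) and 7.76% (higher) of the genes tested. Without dCas9-KRAB-En5 replicate 3, 4 members were called lower and 0 higher, where 14.0% of 15265 genes were called lower and 11.7% higher, and without dCas9-KRAB replicate 1 only *Sgca* was called, where 1.43% of 15110 genes were called lower and 0.0397% higher. DESeq2 called the same count of 3 members lower and 0 higher (8.66% and 5.88% of 16436 genes), as did edgeR with the replicate number as a block (6.79% and 3.94%).

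**Figure D1:**
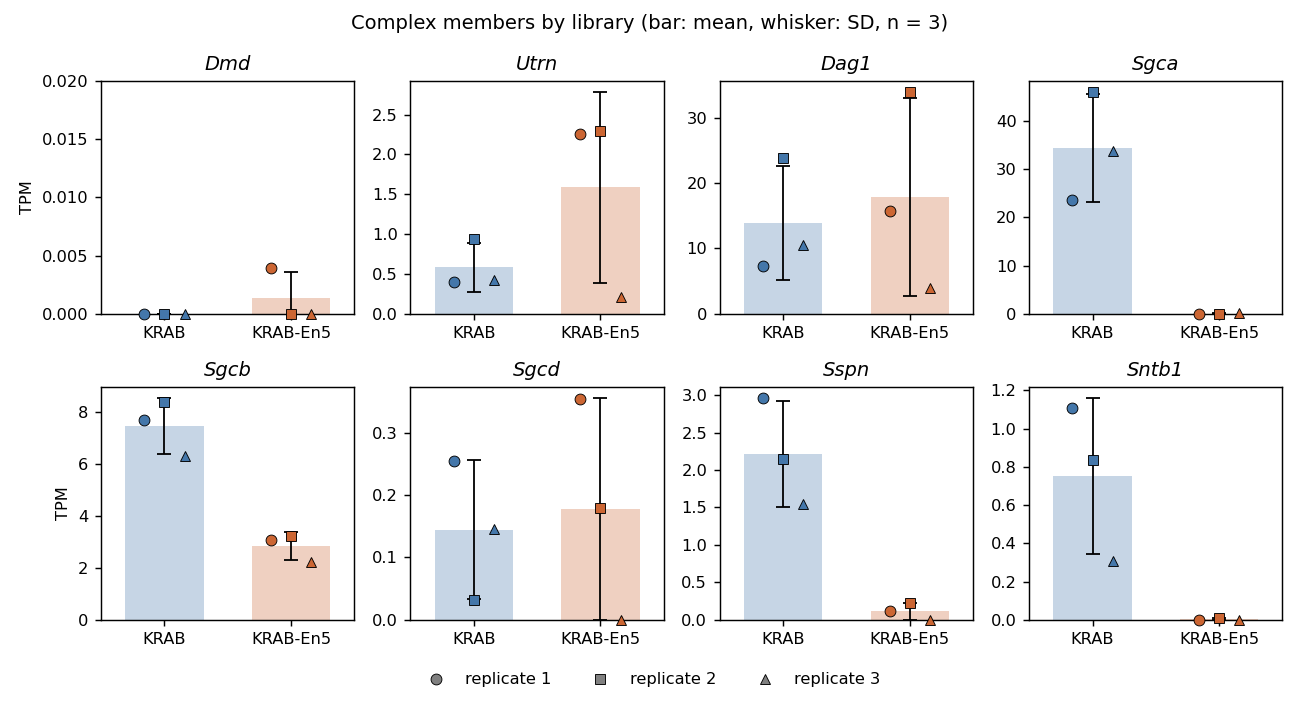
TPM of the 8 members in each library of dCas9-KRAB (KRAB, blue) and dCas9-KRAB-En5 (KRAB-En5, orange), with points for replicates 1 to 3, bars for the mean and whiskers for the SD, which stop at the axis where they would pass below 0. The groups stand apart in *Sgca*, *Sgcb*, *Sspn* and *Sntb1* and overlap in *Utrn*, *Dag1* and *Sgcd*, and *Dmd* lies at or near 0 in every library.

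Sequence upstream of the annotated starts was available from RefSeq (GRCm38.p6) for 7 of the 8 members, as 10 windows of 250 bases. The 4 shown here set members that were called lower (*Sgca*, *Sspn*) beside members that were not called (*Dag1*, *Utrn*). Each runs 5′ to 3′ on the strand of its gene and ends at the base before the start, and capitals mark E-boxes (CANNTG, which reads the same on both strands), the letters that myogenic factors of the MyoD family bind.
*Sgca*, chr11:94976328-94976577, minus strand: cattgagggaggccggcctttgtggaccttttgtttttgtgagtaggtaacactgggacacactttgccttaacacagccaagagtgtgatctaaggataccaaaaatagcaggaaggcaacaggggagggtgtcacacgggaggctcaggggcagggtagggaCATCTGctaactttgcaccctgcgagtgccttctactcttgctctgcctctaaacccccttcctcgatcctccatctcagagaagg
*Sspn*, chr6:145933872-145934121, plus strand: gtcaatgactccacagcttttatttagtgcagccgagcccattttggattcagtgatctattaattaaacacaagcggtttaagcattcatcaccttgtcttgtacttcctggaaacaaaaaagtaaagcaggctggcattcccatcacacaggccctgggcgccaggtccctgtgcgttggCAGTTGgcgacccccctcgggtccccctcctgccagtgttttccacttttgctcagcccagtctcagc
*Dag1*, chr9:108263959-108264208, minus strand: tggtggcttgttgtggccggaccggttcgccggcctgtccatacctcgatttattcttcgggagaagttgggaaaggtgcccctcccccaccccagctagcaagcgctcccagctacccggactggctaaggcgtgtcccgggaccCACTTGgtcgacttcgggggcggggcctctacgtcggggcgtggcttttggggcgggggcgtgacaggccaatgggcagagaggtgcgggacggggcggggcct
*Utrn*, chr10:12861736-12861985, minus strand: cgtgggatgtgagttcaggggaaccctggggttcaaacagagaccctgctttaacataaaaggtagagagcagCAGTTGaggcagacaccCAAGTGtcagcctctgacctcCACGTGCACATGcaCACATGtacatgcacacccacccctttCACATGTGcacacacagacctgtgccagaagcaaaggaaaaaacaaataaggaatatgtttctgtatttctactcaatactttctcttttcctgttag
The *Sgca* window held 1 E-box, whose first base lay 86 bases before the start. The *Sspn* window held 1 as well, 68 bases before a start inside the annotated gene, while a second *Sspn* window, not shown, held 0, and the *Dag1* window held 1. The *Utrn* window, which also precedes a start inside the annotated gene, held 7, of which 1 pair overlaps. An E-box was present in 66.2% of 32851 windows of this length, with a mean of 1.16 per window, so its presence in the windows shown for *Sgca* and *Sspn* is the common case. The variant CAGCTG, a subset of these letters, was found in 13.0% of all windows and in 0 of the 10 members' windows. A match is a description of the letters only, and no binding was measured here.

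In the dystrophin family, dystrophin message stood at or near 0 counts and utrophin was low. *Dmd* (ENSMUSG00000045103, chrX:82948870-85206141, plus strand), which encodes dystrophin, had 0 counts in each dCas9-KRAB library and 2, 0 and 0 counts in dCas9-KRAB-En5. A count of 0 allows up to 3 counts, which for the 23801 bases of *Dmd* exons corresponds to a TPM of 0.0028 to 0.0074 across the libraries, an allowance for counting error only. *Dmd* was therefore not tested and no fold is given. In the same dCas9-KRAB libraries the myotube markers summed to 15500 to 17980 TPM. That sum includes short genes such as *Mylpf* (1062 exonic bases) at 7623 to 9994. The longest of these markers, *Ttn* (116825 exonic bases), stood at 0.098 to 0.15. What part the length of *Dmd* had in its count was not tested.

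*Utrn* (ENSMUSG00000019820, chr10:12382188-12869365, minus strand), which encodes utrophin, stood at a TPM of 0.40, 0.94 and 0.42 in dCas9-KRAB and at 2.25, 2.30 and 0.20 in dCas9-KRAB-En5. The dCas9-KRAB-En5 group held both the highest and the lowest value, so the groups overlap. Its log2 fold change was 1.03 (standard error 0.62, edgeR adjusted p = 0.277). Without dCas9-KRAB-En5 replicate 3 the log2 fold change was 1.38 (edgeR adjusted p = 0.0255), which is not past the cutoff either.

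The values of *Utrn* moved with those of long genes in general. Among 329 protein-coding genes with at least 16000 bases of exons, 17.9%, 22.8% and 12.8% reached a TPM of 1 in dCas9-KRAB, and 48.6%, 47.1% and 12.2% in dCas9-KRAB-En5. For genes of 4000 to 8000 bases the shares were 48.8% to 52.9% and 41.9% to 57.0%. When the trend of each library on exonic length was taken out by an offset, an alternative chosen after the data were seen, the log2 fold change of *Utrn* (17108 exonic bases) turned to -0.34 (edgeR adjusted p = 0.617). With the replicate block in the same fit it was -0.30. The called members kept their calls under the offset, at -9.79 for *Sgca*, -4.97 for *Sspn* and -7.99 for *Sntb1*.

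**Figure D2:**
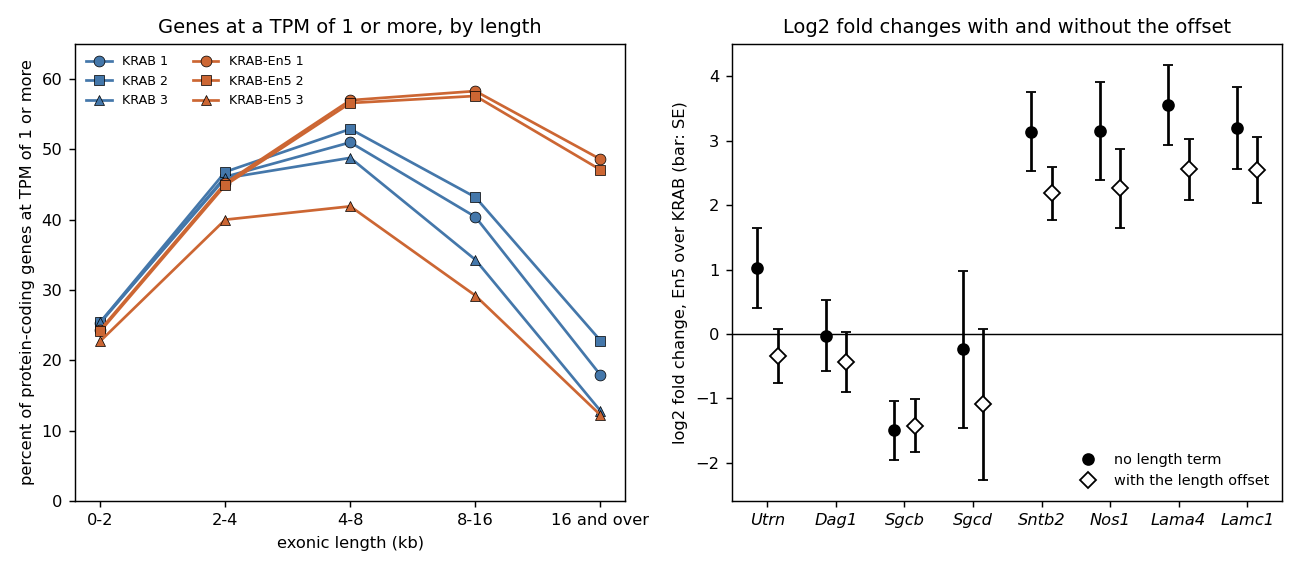
Left, the percent of protein-coding genes with a TPM of 1 or more by exonic length in kb, 1 line per library. Right, log2 fold changes with their standard errors without a length term (filled) and with the length offset (open) for 8 genes of the complex and its ligands: dCas9-KRAB-En5 replicates 1 and 2 lie above the other libraries at the greatest lengths, and *Utrn* crosses 0 between the fits while *Sntb2*, *Nos1*, *Lama4* and *Lamc1* stay above it.

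*Drp2*, which encodes another relative of dystrophin, fell. Its TPM was 1.22, 2.84 and 1.45 in dCas9-KRAB and 0.072, 0.083 and 0 in dCas9-KRAB-En5. The log2 fold change was -5.55 (standard error 0.88, edgeR adjusted p = 0.00191), and the call was lost without dCas9-KRAB replicate 1 (edgeR adjusted p = 0.0168) or replicate 2 (0.0121). Per length, *Drp2* made up 76.1% ± 1.26 (SD, n = 3) of the summed TPM of *Dmd*, *Utrn* and *Drp2* in dCas9-KRAB and 2.18% ± 1.90 (SD, n = 3) in dCas9-KRAB-En5, and *Utrn* the remainder apart from the 2 counts of *Dmd*. The sums themselves were small and overlapped, at 1.62 to 3.78 and 0.204 to 2.38.

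*Dag1* (ENSMUSG00000039952, chr9:108204634-108263958, minus strand) encodes the precursor of α- and β-dystroglycan. It stood at a TPM of 7.33, 23.9 and 10.5 in dCas9-KRAB and at 15.7, 33.9 and 3.93 in dCas9-KRAB-En5. Each group spanned a wide range and the dCas9-KRAB values lay within that of dCas9-KRAB-En5. The log2 fold change was -0.02 (standard error 0.55, edgeR adjusted p = 0.982) and took either sign when libraries were left out, from -0.57 to 0.46, so no direction is given. *Dag1* was the most abundant member by TPM in dCas9-KRAB-En5, and in dCas9-KRAB it was below *Sgca*.

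Among the sarcoglycans, transmembrane proteins of the subcomplex that stabilizes dystroglycan, α-sarcoglycan message was nearly absent from dCas9-KRAB-En5, β-sarcoglycan message remained and δ-sarcoglycan was low throughout. *Sgca* (ENSMUSG00000001508, chr11:94962791-94976327, minus strand) encodes α-sarcoglycan. It had 1116, 2990 and 2622 counts (TPM 23.7, 46.0 and 33.7) in dCas9-KRAB and 0, 0 and 3 counts (TPM 0, 0 and 0.076) in dCas9-KRAB-En5. The groups were far apart. With so few counts on one side, the depth-scaled ratio of dCas9-KRAB over dCas9-KRAB-En5 was 1420, with a 95% counting interval of 486 to 6890. The fitted log2 fold change was -10.16 (standard error 1.01, edgeR adjusted p = 8.5e-05), and every alternative that kept the gene called it lower.

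*Sgcb* (ENSMUSG00000029156, chr5:73632749-73647790, minus strand) encodes β-sarcoglycan, which is needed for the assembly of the other sarcoglycans and is expressed beyond muscle. Its TPM was 7.68, 8.39 and 6.30 in dCas9-KRAB and 3.09, 3.23 and 2.23 in dCas9-KRAB-En5. All 3 dCas9-KRAB-En5 libraries lay below all dCas9-KRAB libraries, with little spread in either group. The log2 fold change was -1.50 (standard error 0.46, edgeR adjusted p = 0.0431), which missed the cutoff. Without dCas9-KRAB-En5 replicate 3 it was -1.86 and was called (edgeR adjusted p = 0.00396).

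*Sgcd* (ENSMUSG00000020354, chr11:46896253-47988969, minus strand) encodes δ-sarcoglycan, the partner of β-sarcoglycan in assembly. It had 57, 10 and 54 counts in dCas9-KRAB and 62, 25 and 0 counts in dCas9-KRAB-En5, a TPM of at most 0.35 in any library. The groups overlapped, the log2 fold change was -0.24 (standard error 1.22, edgeR adjusted p = 0.912), and its sign changed with the library left out, from -1.32 to 0.37.

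*Sgce* encodes ε-sarcoglycan, which can take the place of α-sarcoglycan outside skeletal muscle. It stood at a TPM of 1.21, 0.64 and 0.55 in dCas9-KRAB and at 0.24, 0.078 and 0.12 in dCas9-KRAB-En5. Its log2 fold change of -2.54 (standard error 0.70, edgeR adjusted p = 0.0299) missed the cutoff, although the groups did not overlap, and it was called without dCas9-KRAB-En5 replicate 3 (-2.93, edgeR adjusted p = 0.00767) and by DESeq2 (-2.56, adjusted p = 0.00168). *Sgcz* had 0 counts.

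Summed over *Sgca*, *Sgcb*, *Sgcd*, *Sgce* and *Sgcz*, TPM was 32.8, 55.1 and 40.7 in dCas9-KRAB and 3.68, 3.49 and 2.43 in dCas9-KRAB-En5. Among these genes the order of the group means in dCas9-KRAB was *Sgca* over *Sgcb* over *Sgce* over *Sgcd*. In dCas9-KRAB-En5 *Sgcb* led in every library and made up 89.5% ± 4.80 (SD, n = 3) of the sum, against 18.0% ± 4.64 (SD, n = 3) in dCas9-KRAB. *Sgce*, *Sgcd* and *Sgca* were each at a TPM of at most 0.35 there. With 3 libraries against 3, an exact permutation test of a sum or a share cannot go below p = 0.1, so these are given as descriptions.

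**Figure D3:**
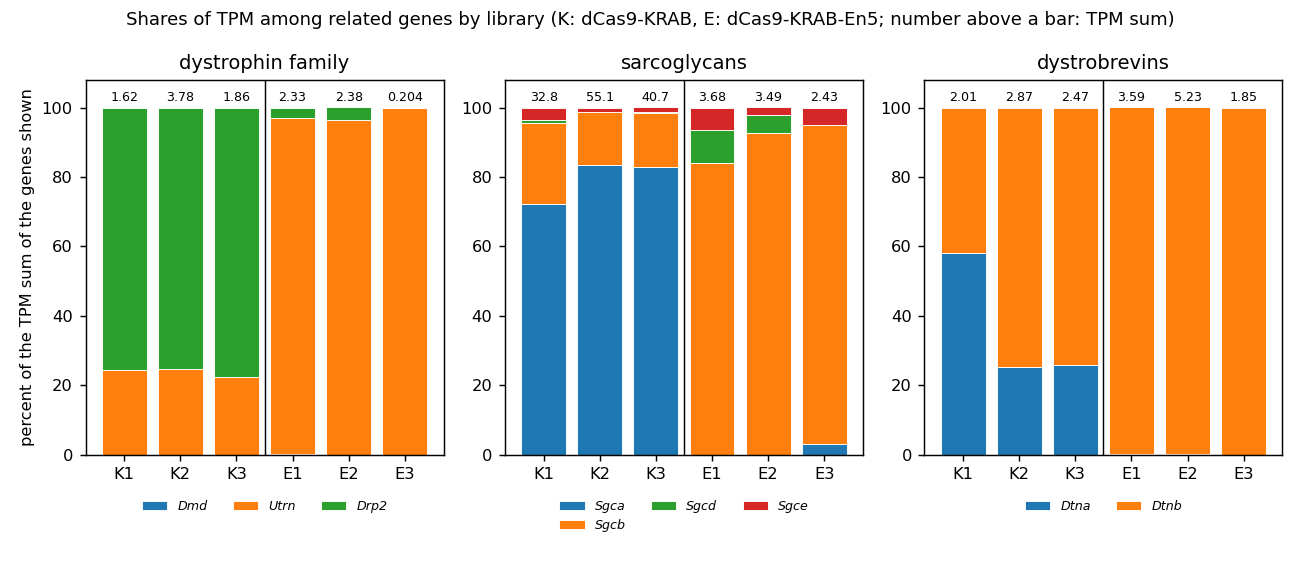
Percent of the summed TPM of 3 groups of related genes held by each gene shown, in dCas9-KRAB (K1 to K3) and dCas9-KRAB-En5 (E1 to E3) replicates, with the TPM sum of the genes shown above each bar. *Sgca* fills most of the sarcoglycan bars in dCas9-KRAB and *Sgcb* fills most in dCas9-KRAB-En5. In the dystrophin family *Drp2* holds the larger share in dCas9-KRAB and *Utrn* in dCas9-KRAB-En5, although *Utrn* itself was not called.

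*Sspn* (ENSMUSG00000030255, chr6:145931641-145965223, plus strand) encodes sarcospan, the tetraspan-like protein that joins the sarcoglycans to dystroglycan. It had 401, 401 and 345 counts (TPM 2.96, 2.14 and 1.54) in dCas9-KRAB and 13, 19 and 0 counts (TPM 0.12, 0.22 and 0) in dCas9-KRAB-En5. The groups did not overlap. The log2 fold change was -4.74 (standard error 0.91, edgeR adjusted p = 0.00589). The call was lost without dCas9-KRAB replicate 1 (edgeR adjusted p = 0.0461) or replicate 2 (0.0216), where the log2 fold changes were -4.51 and -4.86. An antisense gene overlaps 1.38% of its exonic bases, and whether the counting used strand is not given in the sources used here.

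The syntrophins are adaptors that bind dystrophin and dystrobrevin and recruit signaling proteins, and *Sntb1* and *Sntb2* moved in different directions. *Sntb1* (ENSMUSG00000060429, chr15:55636388-55906949, minus strand) encodes β1-syntrophin. It had 160, 167 and 73 counts (TPM 1.11, 0.84 and 0.31) in dCas9-KRAB and 0, 1 and 0 counts in dCas9-KRAB-En5. The ratio of dCas9-KRAB over dCas9-KRAB-En5 was 253, with a wide 95% counting interval of 45.2 to 10032. The fitted log2 fold change was -7.76 (standard error 1.22, edgeR adjusted p = 0.00187), and the call was lost without dCas9-KRAB replicate 1 (edgeR adjusted p = 0.0228).

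*Sntb2*, which encodes β2-syntrophin, the form expressed in many tissues, rose. Its TPM was 1.31, 1.48 and 0.89 in dCas9-KRAB and 20.2, 22.4 and 1.82 in dCas9-KRAB-En5, so replicate 3 stood just above the dCas9-KRAB range. The log2 fold change was 3.14 (standard error 0.61, edgeR adjusted p = 0.00631) and 2.19 with the length offset (edgeR adjusted p = 0.00629). The call was lost without dCas9-KRAB replicate 1 (edgeR adjusted p = 0.0505), 2 (0.0358) or 3 (0.039) or without dCas9-KRAB-En5 replicate 2 (0.0114). *Sntg1* had at most 6 counts in any library and *Sntg2* had 0.

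The dystrobrevins, which bind dystrophin and syntrophins, also differed from each other. *Dtna* (α-dystrobrevin, the muscle form) had 537, 460 and 485 counts in dCas9-KRAB and 3, 2 and 0 counts in dCas9-KRAB-En5. The ratio of dCas9-KRAB over dCas9-KRAB-En5 was 188 (95% counting interval 80.3 to 579), and the fitted log2 fold change was -7.64 (standard error 0.85, edgeR adjusted p = 0.000182). *Dtnb* (β-dystrobrevin) stood at a TPM of 0.84, 2.14 and 1.83 in dCas9-KRAB and at 3.58, 5.23 and 1.85 in dCas9-KRAB-En5, and the log2 fold change was 0.91 (standard error 0.47, edgeR adjusted p = 0.201).

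*Cav3* and *Nos1* encode partners that dock at the complex, caveolin 3 of the muscle membrane and neuronal nitric oxide synthase. *Cav3* had 90, 107 and 158 counts in dCas9-KRAB and 1, 0 and 0 in dCas9-KRAB-En5. Its ratio of dCas9-KRAB over dCas9-KRAB-En5 was 225 (95% counting interval 40.1 to 8906), with a fitted log2 fold change of -7.50 (standard error 1.17, edgeR adjusted p = 0.00172) and an edgeR adjusted p of 0.0167 without dCas9-KRAB replicate 1. *Nos1* had a TPM of 0.043, 0.12 and 0.042 in dCas9-KRAB and of 0.70, 1.59 and 0.17 in dCas9-KRAB-En5. All dCas9-KRAB-En5 values lay above those of dCas9-KRAB, and the log2 fold change of 3.16 (standard error 0.76, edgeR adjusted p = 0.0165) missed the cutoff. It was called by DESeq2 (3.07, adjusted p = 0.000197), with the replicate block (3.09, edgeR adjusted p = 0.0056) and without dCas9-KRAB-En5 replicate 3 (3.41, edgeR adjusted p = 0.00199), and not when the length offset was added to the block (2.31, edgeR adjusted p = 0.0193).

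Over 10 further genes of the complex (*Sgce*, *Sgcz*, *Sntb2*, *Sntg1*, *Sntg2*, *Dtna*, *Dtnb*, *Nos1*, *Cav3* and *Drp2*), 7 were tested, 3 were called lower and 1 higher, with a median log2 fold change of -2.54. At an unadjusted p under 0.05 in edgeR, 4 were lower and 2 higher, against 16.3% and 16.6% of all genes tested. With the replicate block 3 were called lower and 2 higher, and both with DESeq2 and without dCas9-KRAB-En5 replicate 3 the counts called were 4 and 2. Over all genes, the shares called lower and higher were 4.67% and 1.52% in the reported fit and 6.79% and 3.94% with the block. They were 8.66% and 5.88% with DESeq2, and 14.0% and 11.7% without dCas9-KRAB-En5 replicate 3. The higher count fell to 0 without any of the dCas9-KRAB replicates or without dCas9-KRAB-En5 replicate 2, and the lower count to 1 without dCas9-KRAB replicate 1 and to 2 without dCas9-KRAB replicate 2. Without dCas9-KRAB replicate 1, 1.43% of all genes were called lower and 0.0397% higher.

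**Figure D4:**
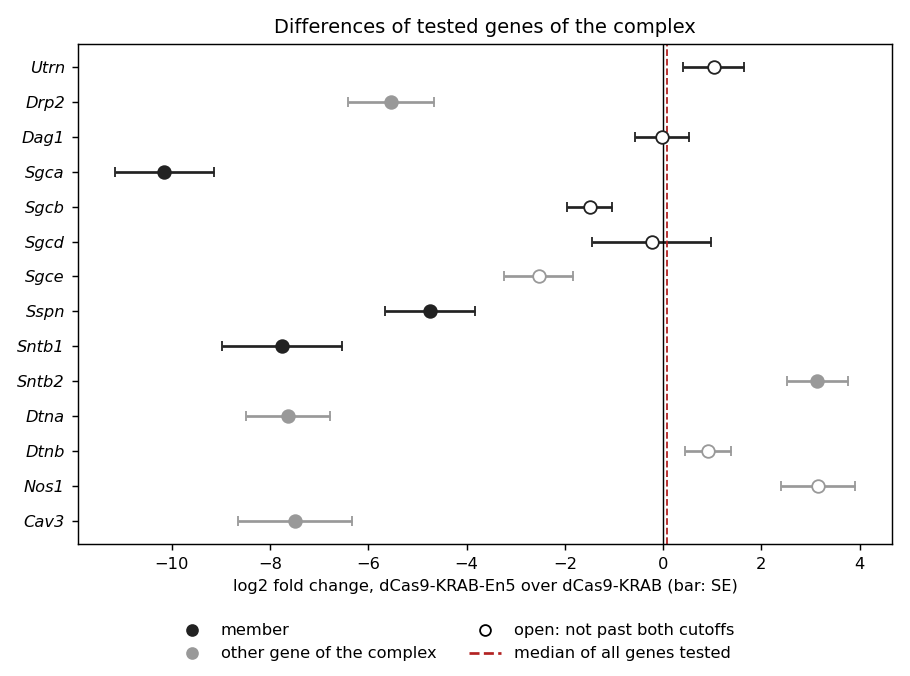
Log2 fold change of dCas9-KRAB-En5 over dCas9-KRAB with its standard error for the 7 tested members (black) and 7 further genes of the complex (gray), filled where past both cutoffs. The filled points lie between -10.16 and -4.74 except for *Sntb2* at 3.14, and the dashed line marks the median of all genes tested at 0.08.

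Dystroglycan binds its ligands through a sugar chain built by dedicated enzymes. Of 17 genes of this pathway, 14 were tested and 0 were called in either direction by edgeR, with a median log2 fold change of -0.47. At an unadjusted p under 0.05, 6 were lower and 0 higher. Over all genes tested, edgeR called 4.67% lower and 1.52% higher, and 16.3% and 16.6% were so at an unadjusted p under 0.05. *Pomgnt1*, which extends the O-mannose core, had a log2 fold change of -2.16 (standard error 0.59, edgeR adjusted p = 0.029) and a TPM of 32.3, 48.7 and 44.1 in dCas9-KRAB and of 5.46, 8.64 and 11.4 in dCas9-KRAB-En5. The log2 fold changes of *Gmppb*, *Dpm2*, *Dolk* and *Rxylt1* were -1.73, -1.30, -1.56 and -1.22. The replicate block called 2 genes of this list lower (*Pomgnt1* and *Gmppb*), DESeq2 called 1, and 6 were called lower without dCas9-KRAB-En5 replicate 3. The shares of all genes called lower in these fits were 6.79%, 8.66% and 14.0%. Other genes, in part on the opposite strand, share 37.6% of the exonic bases of *Gmppb*, so its counts are uncertain.

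The ligands of dystroglycan moved both ways. Of 14 genes 9 were tested, 2 were called lower and 2 higher, with a median log2 fold change of -1.58. At an unadjusted p under 0.05 in edgeR, 5 were lower and 2 higher, against 16.3% and 16.6% of all genes tested. Over all genes tested, 4.67% were called lower and 1.52% higher. *Lama2*, the laminin α2 chain of the muscle basement membrane, had 422, 919 and 262 counts in dCas9-KRAB and 4, 2 and 16 in dCas9-KRAB-En5, a log2 fold change of -5.19 (standard error 1.00, edgeR adjusted p = 0.00586). *Hspg2*, which encodes perlecan, fell by 2.86 on the log2 scale (standard error 0.56, edgeR adjusted p = 0.00644). *Lama4*, a laminin chain of vessels and other tissues, stood at a TPM of 0.61, 1.74 and 0.81 in dCas9-KRAB and at 13.9, 32.6 and 3.10 in dCas9-KRAB-En5, and its log2 fold change was 3.56 (standard error 0.62, edgeR adjusted p = 0.00348). *Lamc1*, the γ1 chain, had a log2 fold change of 3.20 (standard error 0.63, edgeR adjusted p = 0.00644). With the length offset *Lama4* and *Lamc1* stayed called, at 2.56 and 2.55, while *Lama2* and *Hspg2* were not called (edgeR adjusted p = 0.0153 and 0.0199). *Lama5* had a log2 fold change of -2.50 (edgeR adjusted p = 0.0243) and was called with the replicate block (-2.75, edgeR adjusted p = 0.00307). The lower count fell to 0 without dCas9-KRAB replicate 1, dCas9-KRAB replicate 2 or dCas9-KRAB-En5 replicate 2, and to 1 without dCas9-KRAB replicate 3 or dCas9-KRAB-En5 replicate 1. It was 4 without dCas9-KRAB-En5 replicate 3, where 14.0% of all genes were called lower. The higher count fell to 0 without any of the dCas9-KRAB replicates and to 1 without dCas9-KRAB-En5 replicate 2. Without dCas9-KRAB replicate 1, 1.43% of all genes were called lower and 0.0397% higher.

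Costameres are the rib-like sites where the complex meets the sarcomere. Of 16 costamere partners 14 were tested, 3 were called lower and 0 higher by edgeR, with a median log2 fold change of -0.64, and DESeq2 called 4 lower and 0 higher. At an unadjusted p under 0.05 in edgeR, 4 were lower and 0 higher. Over all genes, the shares called lower and higher were 4.67% and 1.52% by edgeR and 8.66% and 5.88% by DESeq2. At an unadjusted p under 0.05 in edgeR they were 16.3% and 16.6%. *Itgb1bp2*, which encodes melusin, an integrin partner of striated muscle, had 977, 1587 and 1858 counts in dCas9-KRAB and 0, 2 and 0 in dCas9-KRAB-En5, a ratio of 1400 (95% counting interval 387 to 11567). *Des*, the muscle intermediate filament desmin, stood at a TPM of 383, 1577 and 1071 in dCas9-KRAB and at 7.87, 5.31 and 13.9 in dCas9-KRAB-En5. *Sync*, the desmin and dystrobrevin partner syncoilin, had a log2 fold change of -6.42 (standard error 0.90, edgeR adjusted p = 0.000851). *Itga7*, the laminin receptor subunit integrin α7, had a log2 fold change of -3.26 (standard error 0.81, edgeR adjusted p = 0.0192), and of -3.80 with the replicate block, which called it (edgeR adjusted p = 0.000689). Without dCas9-KRAB replicate 1 *Des* and *Sync* lost their calls (edgeR adjusted p = 0.0115 and 0.0145). The general adhesion genes of the list, such as *Vcl*, *Tln1* and *Itgb1* (named after their values were seen), had log2 fold changes of -0.06, 0.64 and -0.56. Genes on the opposite strand share 27.3% of the exonic bases of *Sync* and 25.5% of those of *Vcl*. Whether the counting used strand is not given, so these counts are uncertain. *Krt19* was at -1.91 (edgeR adjusted p = 0.205).

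For 6 of the members, the gene outside the list with the most similar profile of log2 CPM (counts scaled to an equal total in each library) over the 6 libraries was sought, leaving out genes whose mean was under 10 CPM. These were *Neurl1a* for *Sgca* (Pearson r = 0.9998), *Rtp4* for *Sgcb* (0.9975), *Lig3* for *Utrn* (0.997), *Fech* for *Sspn* (0.9958), *Dclk1* for *Sntb1* (0.9941) and *Sec31a* for *Dag1* (0.9691). With 6 libraries in 2 groups and the best of many genes taken, high values arise readily, and no test is attached. *Actb*, used as the reference gene of qRT-PCR in the study, had a log2 fold change of -0.88 (standard error 0.50, edgeR adjusted p = 0.239), and its groups overlapped.

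**Figure D5:**
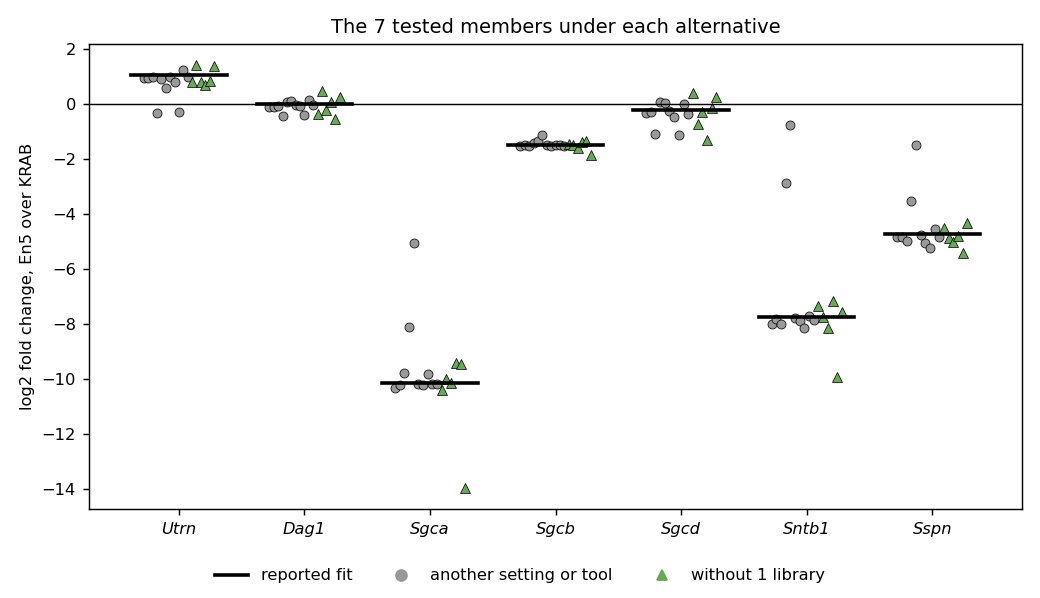
Log2 fold change of the 7 tested members in the reported fit (line), under other settings or tools (circles) and without 1 library (triangles). *Sgca*, *Sntb1* and *Sspn* stay below 0 throughout, the log2(TPM + pseudocount) scale gives them smaller values, *Sgcb* stays between -1.86 and -1.14, and *Utrn*, *Dag1* and *Sgcd* are found on both sides of 0.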

How the data were processed

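Poly(A) RNA of 6 libraries of C2C12 cells was sequenced, 3 of dCas9-KRAB and 3 of dCas9-KRAB-En5. Per the submitters' processing notes, the authors aligned reads to GRCm38/mm10 with HISAT2 2.2.1 and counted them per gene with featureCounts. The authors deposited raw counts and TPM per gene. The annotation release and strand setting are not given in the sources used here. Genes absent from a file were taken as 0. For 98.62% of 12933 genes the length that links the count to the TPM was within 1% of the exonic length in GENCODE.

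Counts were tested with edgeR 4.0.16 in R 4.3.3 (TMM, filterByExpr with a minimum count of 10 and a minimum total of 15, quasi-likelihood test, Benjamini-Hochberg over all genes tested) with the cutoffs of the study, an adjusted p of at most 0.01 and a log2 fold change of at least 1 in size. The study names DESeq2, which was run as an alternative (1.42.0), as was limma-trend (3.58.1) on log2(TPM + 1) and log2(TPM + 0.1). The other alternatives were further normalizations, filters and cutoffs, the replicate block, and each library left out. An offset for exonic length was an alternative chosen after seeing the data. Ratios with few counts have an exact conditional binomial interval at 95%, which like the 3-count floor covers counting error only. Same-numbered replicates of both groups deviated together from their group means (correlations 0.2624, 0.2136 and 0.2903, against -0.3405 to -0.05076 for other pairs). Deviations from a group mean sum to 0 for each gene, so the negative values are not independent of the positive ones. The labels do not explain the numbers. The reported fit takes no account of such pairing, and the fit with the replicate number as a block is an alternative. No replicates agreed within sampling noise (chi-square per degree of freedom 110.2 to 874.6). On simulated counts edgeR recovered 98% of 200 changed genes among 14209 with 2 false calls. Each changed gene there had a log2 change of 2, and all genes had the same preset spread. The simulation held no outlying library, length trend or pairing. It therefore checks the code and does not measure how many changes are found in these libraries.

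The members and lists were chosen with earlier results of these data known. Named were the 8 members, 10 further genes of the complex, the 5 genes with the smallest adjusted p and all called genes in each of the lists for dystroglycan glycosylation, dystroglycan ligands and costamere partners, the most alike gene of a member, *Myog*, *Actb* and markers of myotubes, macrophages, fibroblasts, smooth muscle, endothelial and Schwann cells. Some genes of these lists are not reported here and do not enter the counts. Other experiments of the study were not analysed here.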

Additional observations from a re-analysis of the deposited data

How the results depend on the processing

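The direction and call of *Sgca* held under the 16 alternatives that tested it. The count of members called lower was 3 and became 0 with at least 10 counts required in every library, since *Sgca*, *Sspn* and *Sntb1* then leave the test, and 1 to 4 when libraries were left out. It was 2 with scaling by total counts and on log2(TPM + 1), without the call of *Sspn* and *Sntb1*, respectively. The replicate block changed no member's call.

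The genes called over all genes (890) numbered 586 with total counts, 2198 with no filter, 544 with at least 10 counts in every library, 2390 with DESeq2, 514 on log2(TPM + 1), 1543 with the replicate block, 1580 with the block and length offset, 2449 at an adjusted p of 0.05, and 222 to 3921 with a library left out. Further complex genes called lower were 0 with at least 10 counts in every library and 1 to 4 with a library left out. Those called higher were 0 with total counts and on either log2(TPM) scale, 2 with no filter, at least 10 counts, DESeq2, the block or an adjusted p of 0.05, and 0 to 2 with a library left out.

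Glycosylation genes called lower were 2 with no filter, 1 with DESeq2, 1 on log2(TPM + 0.1), 2 with the block with or without the length offset, 1 at an adjusted p of 0.05, and 0 to 6 with a library left out. Ligands called lower were 4 with no filter, 1 with at least 10 counts, 4 with DESeq2, 0 on log2(TPM + 1), 1 on log2(TPM + 0.1), 0 with the length offset, 4 with block and offset, 5 at an adjusted p of 0.05, and 0 to 4 with a library left out. Ligands called higher were 1 with total counts, 0 on either log2(TPM) scale, and 0 to 2 with a library left out. Costamere partners called lower were 1 with at least 10 counts in every library and 1 to 4 with a library left out. Where no value shows it, the cause was not tested.

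Signs turned for *Utrn* (-0.34 with the length offset, -0.30 with block and offset), for *Dag1* (0.15 with total counts, 0.0886 and 0.0643 on the log2(TPM) scales with pseudocounts 1 and 0.1, and -0.57 to 0.46 with a library left out) and for *Sgcd* (0.035 and 0.0445 on those scales, and -1.32 to 0.37 with a library left out). The TPM ratios of *Utrn* to *Dmd* and of *Sgce* to *Sgca* could not be computed, since *Dmd* was at 0 in 5 libraries and *Sgca* at 0 in 2.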

Other observations

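Cell types other than skeletal muscle that use related forms of the complex were looked at through markers. Schwann cells carry *Drp2* and *Dag1* at their membrane. Of 7 Schwann cell markers 4 were tested. *Mbp* was called higher (TPM 3.42, 5.15 and 3.18 in dCas9-KRAB and 45.3, 55.2 and 5.82 in dCas9-KRAB-En5). *Cnp* was lower without a call (TPM 25.5, 51.6 and 57.0 against 10.2, 16.3 and 10.1, log2 fold change -1.97, edgeR adjusted p = 0.0199), and was called lower with the replicate block (edgeR adjusted p = 0.00531) and by DESeq2 (adjusted p = 0.00214). *S100b*, not tested, had 18, 6 and 20 counts against 0 in each dCas9-KRAB-En5 library, and *Sox10* had 0 counts. Of 8 smooth muscle markers 3 were tested and 2 were called lower, *Acta2* (TPM 160, 339 and 263 against 1.93, 0.81 and 8.79) and *Synpo2* (0.81, 2.37 and 1.09 against 0.054, 0.10 and 0). Which cells this message came from was not tested. *Smtn* was called lower with the replicate block (edgeR adjusted p = 0.00776) and by DESeq2 (adjusted p = 0.000354), and not in the fit without the block (0.0117). *Myh11*, *Cnn1* and *Tagln* were at most 0.36 TPM in any library. *Actg2*, not tested, had 0, 11 and 56 counts in dCas9-KRAB (TPM at most 0.80) and 0 in each dCas9-KRAB-En5 library. The 8 endothelial markers summed to at most 0.80 TPM in any library, and of the 2 tested 0 were called by edgeR or DESeq2 (1, *Pecam1*, was higher at an unadjusted p under 0.05). Of 10 fibroblast markers 6 were tested and *Col1a1* was called lower (TPM 9.73, 68.0 and 33.6 against 2.52, 2.70 and 3.08). At an unadjusted p under 0.05, 5 of the 6 were lower, and 3 were called lower with the replicate block, 4 by DESeq2 and 3 without dCas9-KRAB-En5 replicate 3. Over all genes, edgeR called 4.67% lower and 1.52% higher, and 16.3% and 16.6% were so at an unadjusted p under 0.05. The shares called lower were 6.79% with the replicate block, 8.66% by DESeq2 and 14.0% without dCas9-KRAB-En5 replicate 3.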
